A study of Mus musculus with 2 samples.

Results

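Of the 32285 genes listed in the count matrices, 10 were examined here, chosen by symbol as a set of proteases that cut the extracellular matrix and of the proteins that restrain them. They are the matrix metalloproteinases Mmp2, Mmp3, Mmp9, Mmp13, Mmp14 and Mmp19, the tissue inhibitors Timp1, Timp2 and Timp3, and the membrane protease Adam8. Their transcripts were measured by single-cell RNA sequencing (10x Genomics, 3′ ends) in cells digested with collagenase from the calvaria around a defect, 7 days after it was made. The GA library came from mice injected intraperitoneally each day with 100 µL gambogic amide (GA), a small molecule agonist of the neurotrophin receptor TrkA, at a labelled dose of 1.2 mg/kg in 10% DMSO. The control library came from mice given the same volume of 10% DMSO as vehicle. In both arms the injections began 24 h before the injury and went on for 1 week. All mice were male C57BL/6 animals (C57BL/6J in the study's methods) of 2 months, and 5 were pooled in each library. The study's methods name another dose and duration of GA, and the labels' values are given here. With 1 library per condition there is no replicate, so the values compare these libraries, and the conditions could not be tested against each other.

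Matrix metalloproteinases (MMPs) are zinc enzymes that are made as inactive proenzymes and digest collagens, gelatin and proteoglycans once their prodomain is removed. Tissue inhibitors of metalloproteinases (TIMPs) bind the active site and block it, and Timp2 together with the membrane-bound Mmp14 also activates pro-Mmp2 at the cell surface. In healing bone these enzymes are known for clearing cartilage and provisional matrix, for osteoclast movement along bone, for vessel ingrowth and for the passage of leukocytes. In neutrophils Mmp9 is stored in granules and released on activation, so its transcript is made before the protein is used.

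The matrices held 182949385 unique molecular identifiers (UMIs) over 9322 GA barcodes and 214993030 UMIs over 8718 control barcodes, of which 23 barcodes occurred in both. The study's limits and a doublet filter left 8380 cells of GA (160570724 UMIs in sum, median 10968.5 per cell) and 7553 of control (183666732 and 16299). Clusters were named from marker lists without use of the 10 genes. Cells of the mesenchymal lineage numbered 857 in GA and 1729 in control, neutrophil-like cells 4406 and 2084, and macrophage- or monocyte-like cells 1086 and 1667. The labels name calvarial defect cells. The skeletal markers Prrx1, Pdgfra, Msx1, Twist1, Runx2, Col1a1, Col1a2, Dcn and Lum, all 9 above 0, summed to 65800 and 54269 CPM (UMIs of a gene per 1000000 UMIs of the class) in the mesenchymal lineage. These markers were used to name the lineage, so their high level there was set by the naming. In neutrophil-like cells the same 9 markers summed to 342 and 456 CPM. Intervals below are exact Poisson or binomial 95% intervals that cover counting error only, not differences between mice.

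Mmp3 and Mmp13 lie in a cluster of MMP genes on chromosome 9 (GRCm38), Mmp13 at 9:7272514-7283331 and Mmp3 at 9:7445822-7455975, with Mmp12, Mmp1b, Mmp10, Mmp8, Mmp27, Mmp20 and Mmp7 beside them. The other members lie apart, Mmp2 at 8:92827291-92853420, Mmp9 at 2:164940780-164955850, Mmp14 at 14:54431612-54445364, Mmp19 at 10:128790910-128800824, Timp1 at X:20870166-20874735, Timp2 at 11:118301069-118355740, Timp3 at 10:86300372-86349506 and Adam8 at 7:139978932-139992562. Timp1 and Timp3 each overlap a synapsin gene on the other strand, Syn1 and Syn3, and Timp2 overlaps Cep295nl on its own strand. The 3′ counts of Timp2 could therefore hold reads of Cep295nl.

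Promoters, from 250 bases before to 50 bases after the RefSeq start in GRCm38.p6, were matched by symbol for 7 members, all but Mmp2, Mmp9 and Mmp19. Those of Mmp3 (chr9:7445572-7445871), Mmp13 (chr9:7272264-7272563), Mmp14 (chr14:54431348-54431647) and Timp1 (chrX:20869916-20870215), all on the plus strand, are shown because the first pair were restricted to some mesenchymal cells and the second pair were detected in nearly all of them. Capitals mark the letters of the 5 motifs searched on both strands, AP-1 (TGANTCA), the TATA box (TATAAA), SP1 (GGGCGG), ETS (AGGAAG) and RUNX (ACCACA).
Mmp3: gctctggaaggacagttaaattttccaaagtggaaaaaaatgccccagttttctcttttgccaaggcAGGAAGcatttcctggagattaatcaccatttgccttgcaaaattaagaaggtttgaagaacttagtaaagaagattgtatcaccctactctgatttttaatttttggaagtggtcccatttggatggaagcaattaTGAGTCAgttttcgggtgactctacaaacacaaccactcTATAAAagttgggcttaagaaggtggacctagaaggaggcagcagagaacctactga
Mmp13: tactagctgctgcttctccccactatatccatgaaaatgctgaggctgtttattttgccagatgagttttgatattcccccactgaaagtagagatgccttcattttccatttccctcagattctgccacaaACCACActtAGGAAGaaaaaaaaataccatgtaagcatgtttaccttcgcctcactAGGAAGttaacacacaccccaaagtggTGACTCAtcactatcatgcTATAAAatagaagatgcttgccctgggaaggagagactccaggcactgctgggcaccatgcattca
Mmp14: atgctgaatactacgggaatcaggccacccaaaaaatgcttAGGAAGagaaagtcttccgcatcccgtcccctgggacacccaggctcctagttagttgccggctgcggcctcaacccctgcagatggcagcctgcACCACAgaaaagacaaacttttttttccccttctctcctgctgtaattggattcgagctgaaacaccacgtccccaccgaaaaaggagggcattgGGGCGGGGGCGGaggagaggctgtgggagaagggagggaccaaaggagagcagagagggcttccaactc
Timp1: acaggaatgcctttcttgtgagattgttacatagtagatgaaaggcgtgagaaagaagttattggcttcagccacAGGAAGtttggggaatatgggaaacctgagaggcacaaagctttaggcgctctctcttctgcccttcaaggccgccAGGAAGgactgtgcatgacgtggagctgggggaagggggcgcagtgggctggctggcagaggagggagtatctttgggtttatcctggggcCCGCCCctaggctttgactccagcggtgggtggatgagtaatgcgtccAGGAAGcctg
An AP-1 match began at base -46 from the start in Mmp3 and at base -35 in Mmp13, and a TATA box followed at bases -7 and -16. None of the other 5 promoters held either motif. Of all 32544 promoters of this length, 7.79% held the AP-1 letters and 13.6% the TATA box. SP1 letters, held by 35.9% of all promoters, occurred in the 5 others (Mmp14, Timp1, Timp2, Timp3 and Adam8) and in neither Mmp3 nor Mmp13. ETS letters were in 35.1% and RUNX letters in 16.7% of all promoters. Mmp14 and Mmp13 each held 1 RUNX match. These matches are letters in a window and do not show that a factor binds there.

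Which cells carried each transcript was asked first. Mmp2, Mmp3, Mmp13, Mmp14, Timp1 and Timp3 were carried mostly by the mesenchymal lineage in both libraries. That lineage held 95.5% of the Mmp2 UMIs of GA and 97.9% of those of control. For Mmp3 its share was 96.6% and 99.1%, and for Timp1 92.6% and 96.8%. Both genes had almost no other source, whereas Mmp13, Mmp14 and Timp3 had a second one. Macrophage- or monocyte-like cells held 9.46% and 4.49% of the Mmp13 UMIs and 9.57% and 9.20% of those of Mmp14, and endothelial-like cells held 7.03% and 5.07% of those of Timp3.

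Timp2, Mmp19, Mmp9 and Adam8 had myeloid sources. Timp2, an inhibitor that also helps to activate pro-Mmp2, was split over 3 classes, with 58.9% and 70.3% of its UMIs in the mesenchymal lineage, 20.3% and 22.0% in macrophage- or monocyte-like cells and 15.5% and 3.13% in neutrophil-like cells. Macrophage- or monocyte-like cells held 50.6% and 49.4% of the UMIs of Mmp19, a secreted MMP, and the mesenchymal lineage held 30.8% and 35.6%. Adam8, a protease of leukocyte surfaces, lay in neutrophil-like cells for 69.4% of its GA UMIs and 34.2% of its control UMIs, and in macrophage- or monocyte-like cells for 21.4% and 50.5%. Mmp9, the second gelatinase, lay in neutrophil-like cells for 93.7% of its GA UMIs and 60.9% of its control UMIs.

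**Figure D1:**
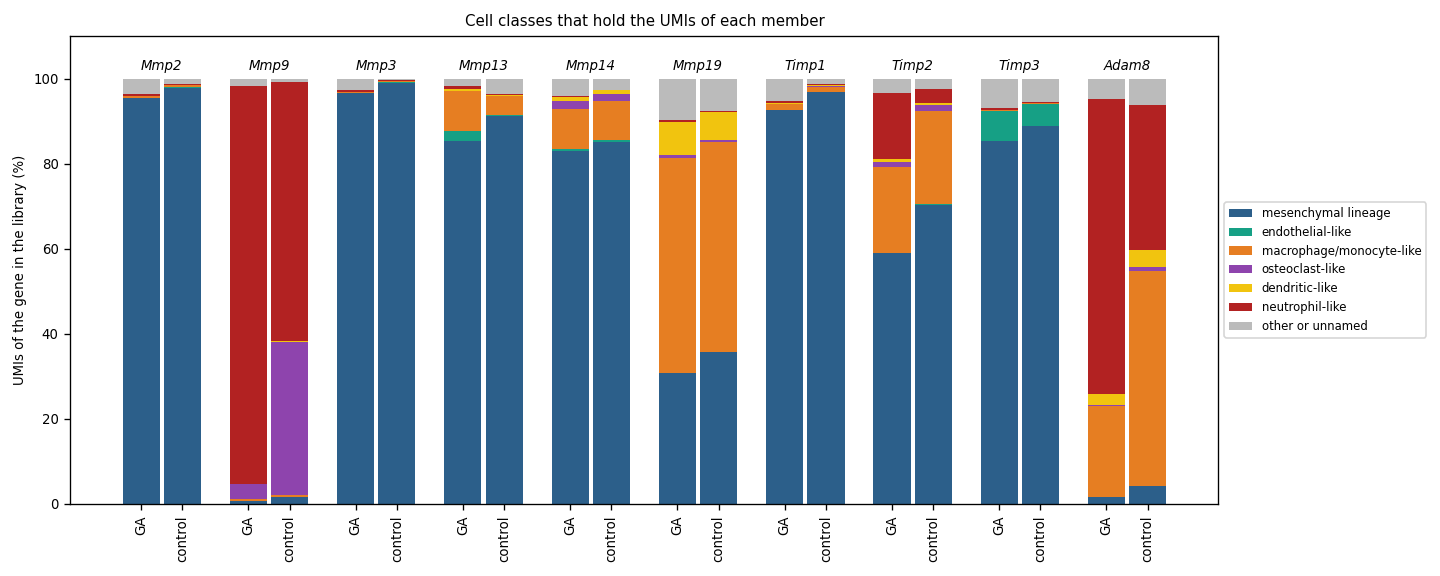
Percent of each member's UMIs in a library that lay in each cell class, GA and control side by side. Blue, the mesenchymal lineage, fills most of the bars of Mmp2, Mmp3, Mmp13, Mmp14, Timp1 and Timp3, and red, neutrophil-like cells, takes 93.7% of Mmp9 in GA and 60.9% in control, where purple, osteoclast-like cells, takes 36.2%.

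Most of the remaining Mmp9 of the control library came from a few cells. Osteoclast-like cells were 62 in control and held 36.2% of the library's Mmp9 UMIs at 3918 CPM (95% interval 3846 to 3990). The 30 osteoclast-like GA cells held 3.59% at 1841 CPM (1770 to 1914), and 5 of them held 84.4% of these UMIs. With fewer than 50 cells in GA, these levels are given side by side without a ratio. Mmp9 is a known product of osteoclasts. The class was named by the osteoclast markers Acp5, Ctsk, Atp6v0d2, Dcstamp, Ocstamp, Calcr, Nfatc1 and Oscar, so their high level in it was set by the naming. They summed to 16825 and 20955 CPM in it, with all 8 above 0.

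Levels by class are compared next, for 1 gene at a time and within a library. Mmp2, the gelatinase that Mmp14 and Timp2 activate, stood at 961 CPM in the mesenchymal lineage of GA (952 to 970) and 806 CPM in that of control (800 to 811). Endothelial-like cells had 22.8 and 42.7 CPM, erythroid-like cells 6.53 and 79.9 CPM and neutrophil-like cells 6.35 and 9.08 CPM. In control the erythroid-like level lay above the endothelial-like one. The 51 GA and 50 control cells of a class named megakaryocyte-like are left out of these orders, as 15 and 27 of them formed a cluster led by Tagln and Acta2, genes of smooth muscle. At least 1 Mmp2 UMI was found in 98.5% and 98.6% of mesenchymal cells, against 6.41% and 8.31% of B-like cells and 12.2% and 13.3% of erythroid-like cells, which should lack the gene. These cells were shallower, with medians of 6588 and 6034 UMIs in B-like and 5701 and 5441 in erythroid-like cells against 49625 and 50970 in mesenchymal cells. After thinning of every cell to 2000 UMIs the shares were 73.2% and 66.8% in mesenchymal cells and 2.03% and 1.02% in B-like cells.

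Mmp14, the membrane-type collagenase, was also highest in the mesenchymal lineage, at 794 CPM in GA (786 to 802) and 837 CPM in control (831 to 843). Macrophage- or monocyte-like cells had 187 and 243 CPM and endothelial-like cells 183 and 247 CPM, and the intervals of these classes overlapped in both libraries, so their order was not resolved. Osteoclast-like cells lay between, at 536 CPM in 30 GA cells and 554 CPM in 62 control cells. B-like cells, which should lack the gene, had 8.67 and 11.4 CPM. Dendritic-like cells lay well above that, at 129 and 115 CPM.

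Mmp3, the stromelysin that cuts proteoglycans and activates other proenzymes, stood at 129 CPM in the mesenchymal lineage of GA (126 to 132) and 217 CPM in that of control (214 to 219). No other class with at least 50 cells exceeded 1.08 CPM in GA or 13.1 CPM in control, and neutrophil-like cells had 0.515 and 1.79 CPM. Its UMIs were in 27.8% and 32.0% of mesenchymal cells, compared with 0.843% and 1.53% of B-like cells.

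Mmp13, the collagenase of cartilage and bone, reached 119 CPM in the mesenchymal lineage of GA (115 to 122) and 123 CPM in that of control (121 to 125). Macrophage- or monocyte-like cells had 26.9 and 16.2 CPM. In endothelial-like cells the level was 153 CPM in GA and 4.95 CPM in control, but 134 of the 141 GA UMIs lay in a single cell. The gene was uneven within the mesenchymal lineage too, with a UMI in 14.7% and 31.1% of its cells and, after thinning to 2000 UMIs, in 7.49% and 11.0%. In B-like cells the counted shares were 1.69% and 1.53%.

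Timp1, an inhibitor of most MMPs, was at 1045 CPM in the mesenchymal lineage of GA (1036 to 1054) and 1029 CPM in that of control (1023 to 1036). Every other named class compared, each with at least 50 cells, stayed at or below 54.2 CPM in GA and 93.1 CPM in control, both in endothelial-like cells. Timp2 was highest in the same lineage, at 859 CPM (850 to 867) and 842 CPM (836 to 848), followed by macrophage- or monocyte-like cells at 604 and 706 CPM, osteoclast-like cells at 521 and 550 CPM and neutrophil-like cells at 242 and 230 CPM. A Timp2 UMI was seen in 77.5% and 66.7% of neutrophil-like cells, far above the 6.75% and 8.31% of B-like cells, which had similar depth.

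Timp3, the inhibitor that stays bound to the matrix, differed from both by its highest class. Among classes with at least 50 cells, endothelial-like cells led with 736 CPM in GA (682 to 794) and 372 CPM in control (347 to 398). The mesenchymal lineage had 181 CPM (177 to 185) and 151 CPM (148 to 153). Pericyte or smooth muscle-like cells, 5 in GA and 29 in control, were too few to be ordered and held 0.953% and 1.24% of the Timp3 UMIs. Neutrophil-like cells held 0.937 and 1.02 CPM. It was listed at 0 in the 82 and 113 erythroid-like cells, which allows a share of cells with a UMI of up to 3.66% and 2.65%.

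The myeloid members were just as uneven. Mmp19 was at 263 CPM in macrophage- or monocyte-like cells of GA (256 to 270) and 260 CPM in those of control (254 to 265). In dendritic-like cells it stood at 266 CPM (249 to 283) and 200 CPM (189 to 211). The intervals of these classes overlapped in GA and not in control, but 5 dendritic-like cells held 34.0% and 35.9% of the Mmp19 UMIs of that class. Neutrophil-like cells carried Mmp19 at 1.12 and 1.92 CPM, close to the 2.75 and 1.08 CPM of B-like cells. Adam8 was highest in neutrophil-like cells, at 406 CPM (400 to 412) and 404 CPM (394 to 414), then in macrophage- or monocyte-like cells at 239 and 261 CPM and in dendritic-like cells at 178 and 118 CPM. Mmp9 stood at 1566 CPM (1554 to 1578) and 1238 CPM (1221 to 1256) in neutrophil-like cells and had a UMI in 93.9% and 90.3% of them, against 7.59% and 3.56% of B-like cells.

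**Figure D2:**
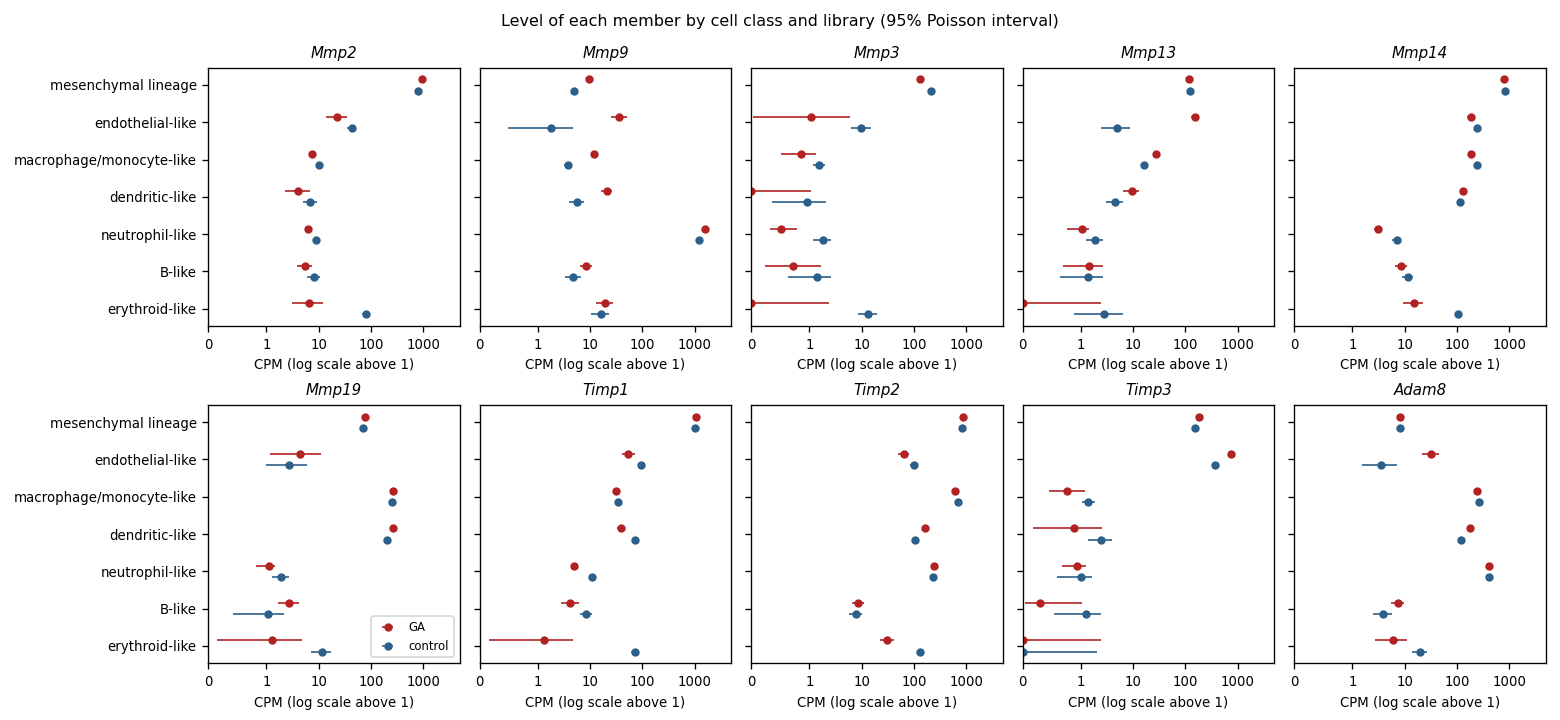
Level of each member in 7 cell classes of the GA (red) and control (blue) libraries, in CPM on an axis that is logarithmic above 1, with exact Poisson 95% intervals. Of these 7 classes, Mmp2, Mmp3, Mmp14, Timp1 and Timp2 are highest in the mesenchymal lineage, Timp3 in endothelial-like cells, and Mmp9 and Adam8 in neutrophil-like cells. Mmp9 was higher still in osteoclast-like cells, which are not drawn. The GA point of Mmp13 in endothelial-like cells rests mostly on 1 cell.

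The comparison of the libraries asks how the transcripts differed between GA and vehicle. A gene is called here when its ratio of CPM is beyond 1.5-fold either way and it has at least 200 UMIs over both libraries in the class. Summed over all cells, 8 of the 10 members were past 1.5-fold, where 27.4% of the 15319 genes measured so were. Mmp9 and Adam8 were higher in the GA library, and Mmp2, Mmp3, Mmp13, Mmp14, Timp1 and Timp2 were lower. Mmp9 stood at 444 CPM in GA and 173 CPM in control, a log2 ratio of 1.36 (1.34 to 1.38), and Adam8 at 155 and 101 CPM, a log2 ratio of 0.63 (0.60 to 0.66). Mmp3 had the lowest ratio, with 38.0 CPM in GA and 114 CPM in control, -1.59 (-1.63 to -1.55). The log2 ratios of the other lower members ran from -0.92 for Mmp14 to -0.59 for Mmp2, and Mmp19 (-0.50) and Timp3 (-0.56) were within 1.5-fold.

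The libraries also differed in their cells, as the mesenchymal lineage made up 28.4% of the UMIs of GA and 52.2% of those of control, and neutrophil-like cells 26.6% and 8.51%. With every class set to the same share of UMIs in both libraries, only Mmp3 among the members stayed past 1.5-fold, at 53.3 CPM in GA and 88.5 CPM in control. There its log2 ratio was -0.73, while those of the other 9 lay between -0.11 (Mmp14) and 0.28 (Timp3). The ratio of Mmp9 was 0.20 and that of Adam8 -0.03. The share of all genes past 1.5-fold under this setting is not given here. Levels are therefore compared within classes from here on.

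Within the mesenchymal lineage 2 of the 10 members were past 1.5-fold, where 9.14% of 12755 genes were. Mmp3 was lower in GA, at 129 CPM against 217 CPM, with a log2 ratio of -0.75 (-0.79 to -0.70). Mmp9 was higher, at 9.40 CPM (8.54 to 10.3) against 5.02 CPM (4.59 to 5.49), with a log2 ratio of 0.90 (0.71 to 1.09). Both values of Mmp9 are near the 8.53 and 4.78 CPM of B-like cells. All 10 neutrophil markers were also higher in the mesenchymal cells of GA, with sums of 796 and 185 CPM and none at 0, and their part in the Mmp9 result was not tested. Per 1000 UMIs of these markers, mesenchymal cells carried 11.8 Mmp9 UMIs in GA and 27.1 in control, and neutrophil-like cells 4.66 and 3.99. With an estimate of free RNA subtracted, the Mmp9 ratio was 0.57, within 1.5-fold. The median log2 ratio over the members was 0.02, compared with -0.02 over all genes.

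The remaining 8 members, among them the inhibitors and both partners of Mmp2 activation, differed little in this lineage. Timp1 had a log2 ratio of 0.02 (0.01 to 0.04), Timp2 of 0.03 (0.01 to 0.05), Mmp14 of -0.08 (-0.09 to -0.06) and Mmp13 of -0.05 (-0.10 to -0.0047). Mmp2 (0.25) and Timp3 (0.26) were the higher ones and remained within 1.5-fold. The even level of Mmp13 hid differences of opposite sign among the mesenchymal sub-classes.

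**Figure D3:**
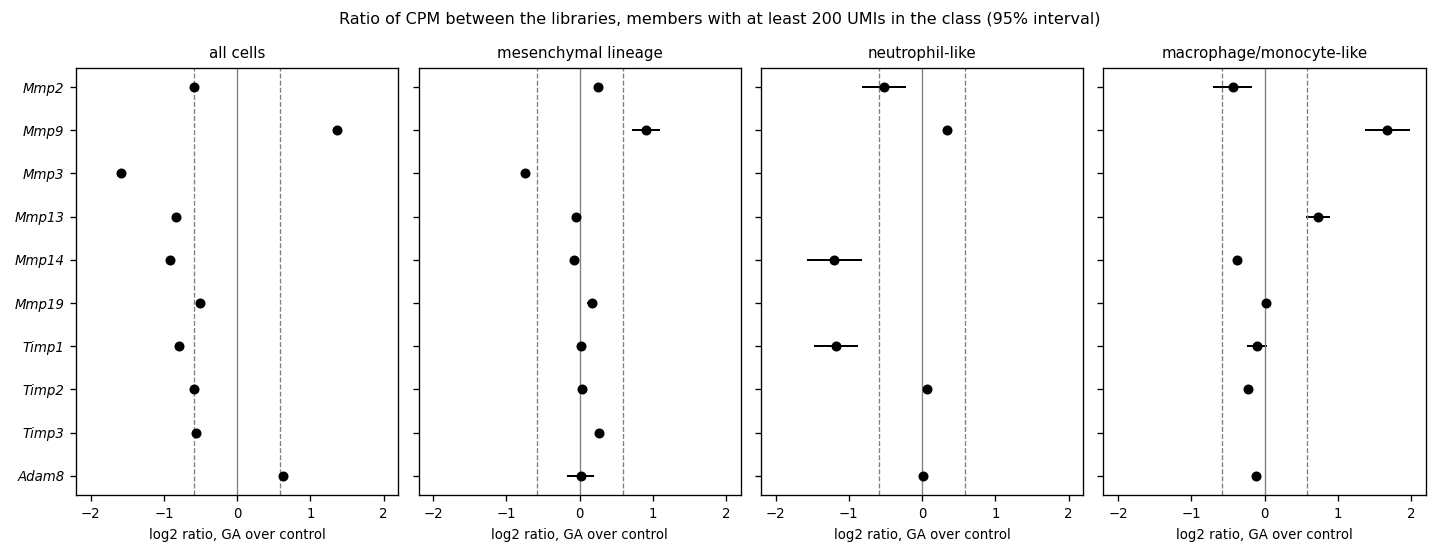
Log2 ratio of CPM, GA over control, of the members with at least 200 UMIs over all cells and in 3 classes, with exact 95% intervals, where dashed lines mark 1.5-fold. Over all cells 8 of 10 points lie outside the dashed lines, and in the mesenchymal lineage only Mmp9 and Mmp3 do.

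The mesenchymal cells were divided into 5 sub-classes by markers that the study names, Stem 1-like (314 GA and 481 control cells), Stem 2-like (283 and 473), multilineage progenitor-like (121 and 351), osteoblast-like (87 and 65) and fibroblastic progenitor-like (46 and 353). Both stem-like groups are defined by Cd34 and Thy1 among others. The first adds the division genes Ube2c and Mki67 and the second Clec3b, Dpt and Ly6a. Stem 1-like clusters led by division genes held 84 and 16 of the GA cells and 107 and 50 of the control cells. The remaining Stem 1-like clusters were led by other genes. The study's markers for the multilineage group include Scx and Fmod. The fibroblastic group had too few GA cells for a ratio.

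Mmp3 was almost confined to Stem 2-like cells. Its level there was 402 CPM in GA (392 to 413) and 827 CPM in control (815 to 838), a log2 ratio of -1.04 (-1.08 to -0.995). The 3 clusters of Stem 2-like cells showed the same direction, with 404 against 637 CPM in the cluster led by Egfl6 and Angptl1, 410 against 818 CPM in that led by C3 and Clec3b, and 397 against 1086 CPM in that led by Pi16 and Clec3b. A UMI of the gene was found in 64.0% and 80.5% of Stem 2-like cells, and after thinning in 28.6% and 49.7%, so both the share of cells and the level were lower in GA. Over 19 other settings, some of which left Stem 2-like cells unchanged, the ratio lay between -1.32 and -0.86. Neutrophil markers in Stem 2-like cells summed to 566 and 155 CPM, with 10 of 10 higher in GA and none at 0, erythroid markers to 93.3 and 14.2 CPM (6 of 9 higher) and pericyte or smooth muscle markers to 150 and 257 CPM (1 of 8 higher), and their part in the Stem 2-like results was not tested.

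Outside Stem 2-like cells Mmp3 was low. Stem 1-like cells had 21.7 CPM in GA (19.8 to 23.8) and 5.93 CPM in control (5.16 to 6.77), a log2 ratio of 1.87 (1.64 to 2.11). However, 5 cells held 66.6% of these GA UMIs, and the ratio was 0.36 with a mitochondrial limit of 10% and 0.39 with each cell named by its own markers. Multilineage progenitor-like cells had 9.51 and 8.02 CPM, osteoblast-like cells 1 UMI and none, and fibroblastic progenitor-like cells 4.28 and 33.2 CPM.

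Mmp13 had its highest level in multilineage progenitor-like cells, at 729 CPM in GA (707 to 751) and 373 CPM in control (364 to 382), a log2 ratio of 0.97 (0.91 to 1.02). Here 5 of the 121 GA cells held 47.1% of the UMIs and 5 of the 351 control cells 22.9%. Without the 5 highest cells of each library the log2 ratio was 0.46. The share of cells with a UMI was 47.1% in GA and 64.7% in control, and 33.1% and 28.5% after thinning. The level lay mainly in the cluster led by Ibsp, Mest and Sox6, at 1041 and 429 CPM, whereas the cluster led by Matn4, Lgr5 and Tnmd had 41.3 and 200 CPM. These clusters held 81 and 40 of the GA cells and 254 and 97 of the control cells. Of the 8 osteoblast markers, 5 were higher in GA in this sub-class and Col22a1 was at 0 there, and they summed to 293 and 594 CPM.

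In both stem-like groups Mmp13 was lower in GA. Stem 1-like cells had 29.1 CPM (26.9 to 31.5) and 58.9 CPM (56.4 to 61.4), with a log2 ratio of -1.02 (-1.15 to -0.89), and Stem 2-like cells had 23.1 and 39.3 CPM, with a log2 ratio of -0.77 (-0.96 to -0.58). After thinning, the Stem 2-like ratio was 0.06. A few cells carried much of it, since the 5 highest held 82.4% and 49.4% of the UMIs in Stem 1-like and 69.4% and 52.4% in Stem 2-like cells. Within Stem 1-like cells it was highest in the cluster led by Actg2, Tagln and Acta2, at 104 and 168 CPM, which held 69 of 314 GA cells and 159 of 481 control cells. The 8 pericyte or smooth muscle markers, Acta2 among them, summed to 570 and 1177 CPM in Stem 1-like cells, with 0 of 8 higher in GA, and their part in the result was not tested. Fibroblastic progenitor-like cells had 43.4 CPM in GA and 138 CPM in control, and osteoblast-like cells 20.9 and 5.57 CPM from 67 and 14 UMIs.

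**Figure D4:**
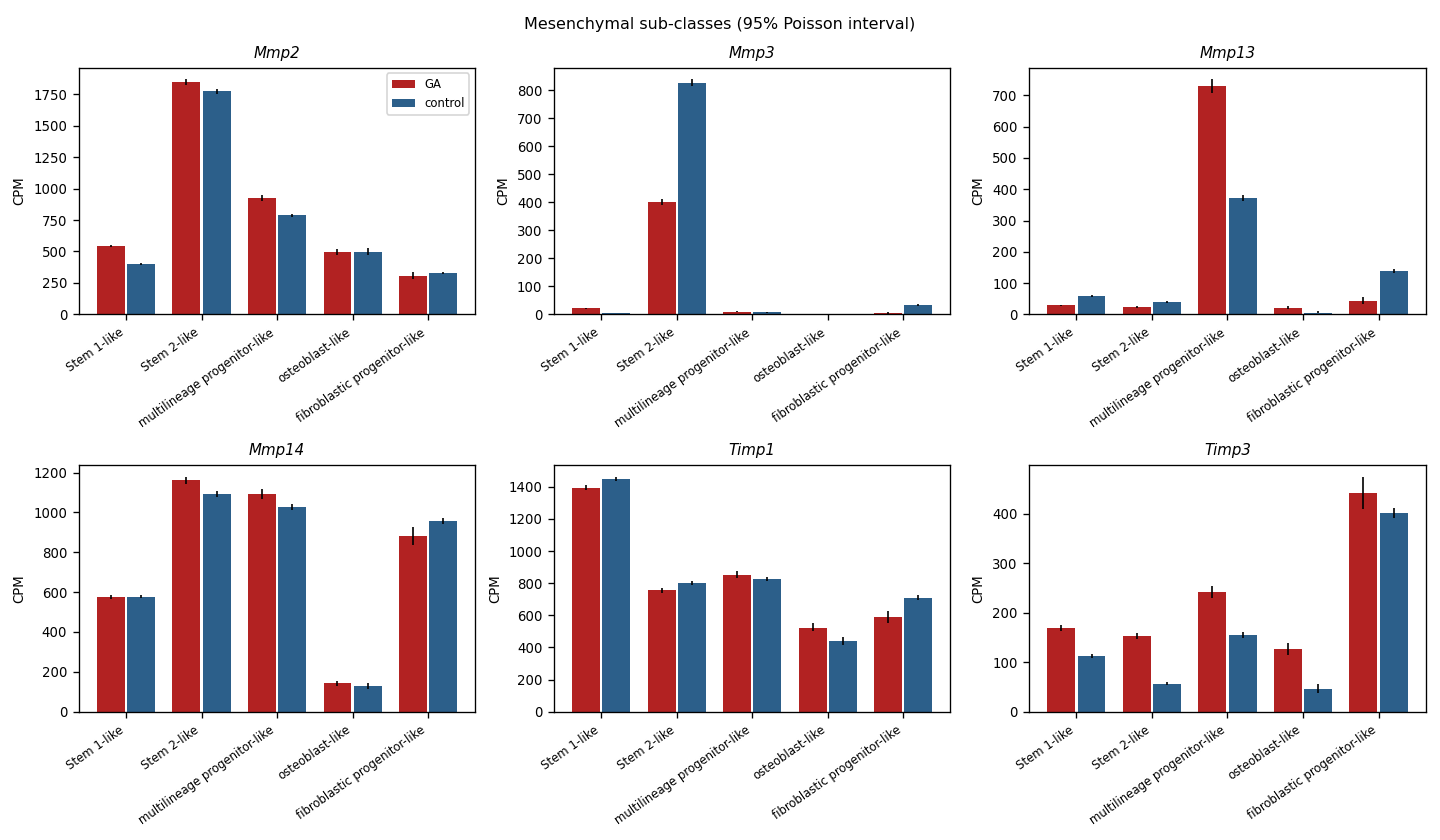
CPM of 6 members in 5 mesenchymal sub-classes, GA in red and control in blue, with exact Poisson 95% intervals, where the fibroblastic progenitor-like bar of GA rests on 46 cells. Mmp3 stands almost alone in Stem 2-like cells (402 and 827 CPM), Mmp13 in multilineage progenitor-like cells (729 and 373 CPM), and Timp3 is higher in GA in 4 of the 5 sub-classes by at least 1.5-fold.

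Timp3 was past 1.5-fold and higher in GA in all 4 sub-classes that had at least 50 cells in each library. Stem 2-like cells had 153 CPM (146 to 160) and 56.3 CPM (53.3 to 59.4), a log2 ratio of 1.44 (1.34 to 1.54), and their 3 clusters had 150 against 53.1, 94.0 against 40.6 and 185 against 81.8 CPM. Osteoblast-like cells had 125 and 46.5 CPM, a log2 ratio of 1.43 (1.13 to 1.74). Smaller ratios were found in multilineage progenitor-like cells (241 and 155 CPM, 0.64) and in Stem 1-like cells (169 and 113 CPM, 0.59, just past 1.5-fold). The Stem 1-like clusters differed, with 278 and 158 CPM in that led by Dmkn and Cd55 and 29.5 and 80.7 CPM in that led by Actg2 and Tagln. The osteoblast-like value did not hold when doublets were kept (-0.31), at a clustering resolution of 0.5 (-0.01) or with each cell named by its own markers (-0.06), and those of Stem 1-like and multilineage progenitor-like cells fell within 1.5-fold without the 5 highest cells (0.43 and 0.26). In Stem 2-like cells the ratio lay between 1.16 and 1.57 over 19 other settings, some of which left these cells unchanged. Neutrophil markers were higher in GA in these 4 sub-classes as well, by 9 of 10 in multilineage progenitor-like cells (467 and 195 CPM in sum) and by 10 of 10 in osteoblast-like cells (3227 and 873 CPM), and their part was not tested. The whole lineage differed less, at 0.26. Fibroblastic progenitor-like cells, the sub-class with the highest Timp3 at 441 and 401 CPM, made up 46 of 857 GA cells and 353 of 1729 control cells. The part of these shares in the lineage ratio was not tested.

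The 3 genes of pro-Mmp2 activation were all lower in Stem 1-like than in Stem 2-like and multilineage progenitor-like cells. Mmp2 was highest in Stem 2-like cells, at 1845 CPM in GA and 1772 CPM in control, and lower in multilineage progenitor-like (927 and 788 CPM) and Stem 1-like cells (545 and 402 CPM). Mmp14 stood at 1162 and 1093 CPM in Stem 2-like and 1092 and 1029 CPM in multilineage progenitor-like cells, and Timp2 at 1549 and 1208 CPM and 1298 and 1286 CPM. In Stem 1-like cells Mmp14 had 577 and 576 CPM and Timp2 399 and 465 CPM, and all 9 pairs were within 1.5-fold. Timp1 had the other order, with 1393 and 1452 CPM in Stem 1-like, 854 and 825 CPM in multilineage progenitor-like and 755 and 802 CPM in Stem 2-like cells.

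By count, 4 of 10 members were past 1.5-fold in Stem 1-like cells (8.84% of all genes), with Mmp3, Mmp9 and Timp3 higher and Mmp13 lower. In Stem 2-like cells 3 of 8 members with enough UMIs were past it (8.82% of all genes), Timp3 higher and Mmp3 and Mmp13 lower. In multilineage progenitor-like cells 3 of 9 were (5.14% of all genes), Mmp13 and Timp3 higher and Adam8 lower, the last at 10.2 and 15.97 CPM, where the log2 ratio of -0.65 was -0.24 when doublets were kept. In osteoblast-like cells 1 of 5 was (6.98% of all genes), Timp3. Mmp9 in Stem 1-like cells stood at 8.89 and 4.89 CPM, a log2 ratio of 0.86 that was 0.35 among cells with at least 2000 UMIs and 0.56 with free RNA subtracted, and the neutrophil markers there summed to 688 and 170 CPM with 10 of 10 higher in GA.

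In neutrophil-like cells 2 of the 6 members with at least 200 UMIs were past 1.5-fold, where 5.67% of 8254 genes were. Both were genes with a level of a few CPM there, Timp1 at 4.90 and 11.1 CPM, a log2 ratio of -1.18 (-1.47 to -0.88), and Mmp14 at 3.07 and 7.04 CPM, -1.20 (-1.57 to -0.82). Of the 110 control UMIs of Mmp14, 23 lay in 1 cell and 29 in the 5 highest cells, against 6 of 131 in the 5 highest of GA. B-like cells had 4.19 and 8.47 CPM of Timp1 and 8.67 and 11.4 CPM of Mmp14. The mesenchymal markers in neutrophil-like cells summed to 342 CPM in GA and 456 CPM in control, with 0 of 9 higher in GA and none at 0, and their part in these results was not tested. The members that neutrophil-like cells carry in quantity were within 1.5-fold, Mmp9 at 0.34 (0.32 to 0.36), Timp2 at 0.07 (0.02 to 0.13) and Adam8 at 0.01 (-0.04 to 0.05). Medians over the 6 members and over all genes were -0.26 and -0.13.

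Mmp9 varied more among stages of neutrophil-like cells than between libraries. Dividing neutrophil precursor-like cells (327 GA and 173 control cells) had 152 CPM (145 to 160) and 78.7 CPM (70.5 to 87.5), a log2 ratio of 0.95 (0.78 to 1.13), and Mmp9 was the 1 of 3 members past 1.5-fold there (2.57% of all genes). Immature neutrophil-like cells (652 and 254 cells), named by Camp, Ltf and Ngp, had 2150 and 1915 CPM. Mature neutrophil-like cells (2770 and 1352 cells), named by Cxcr2 and Il1b, had 2172 and 1822 CPM. Neutrophil-like clusters that stayed unnamed are outside these stages. Those led by Ldhc and Krt81 (294 and 113 cells) had 933 and 567 CPM of Mmp9. Those led by Krt81 and Thbs1 (319 and 147 cells) had 2173 and 1783 CPM, and those led by Olfm4 and Chil3 (44 and 45 cells) 1742 and 1564 CPM. Within the precursors the cluster led by the division genes Hist1h2ap, Top2a and Mki67 had 200 and 98.0 CPM and that led by the granule genes Elane and Prtn3 had 18.5 and 5.56 CPM, so the gene was higher in GA in both. The Elane and Prtn3 cluster had only 65 GA and 27 control cells, and its low levels are given without intervals. The ratio of the precursors depended on the settings, as given below.

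Among the named stages Adam8 and Timp2 were highest in the mature one. The unnamed cluster led by Krt81 and Thbs1 had 654 and 716 CPM of Adam8 and 424 and 390 CPM of Timp2. Adam8 stood at 101 and 109 CPM in dividing precursor-like cells, 266 and 223 CPM in immature and 617 and 641 CPM in mature neutrophil-like cells. Timp2 stood at 36.3 and 49.7 CPM, 167 and 173 CPM, and 388 and 371 CPM in the same order. None of these 6 pairs was past 1.5-fold. In immature neutrophil-like cells 0 of 3 members were past it (6.7% of all genes), and in mature cells 1 of 5 (7.62% of all genes), Timp1 at 7.25 and 16.003 CPM. Among clusters of mature cells Adam8 was highest in GA in that led by Galnt11 and Rgs1 (811 and 758 CPM) and in control in that led by Cxcl2 and Wfdc17 (788 and 869 CPM). The Mmp9 ratio of the precursors was within 1.5-fold when doublets were kept (0.27), when the listed genes could enter the clustering (0.15), after thinning (0.18) and as a mean over cells (0.36).

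Among macrophage- or monocyte-like cells 2 of 8 members with enough UMIs were past 1.5-fold, where 7.24% of 9963 genes were. Mmp9 was at 12.0 CPM in GA (10.6 to 13.5) and 3.77 CPM in control (3.16 to 4.46), a log2 ratio of 1.67 (1.37 to 1.98). All 10 neutrophil markers were higher in GA in these cells too, at 1579 and 321 CPM in sum with none at 0, and their part in the result was not tested. Per 1000 UMIs of these markers there were 7.61 and 11.8 Mmp9 UMIs. B-like cells had 8.53 and 4.78 CPM of Mmp9, T- or NK-like cells 21.7 and 4.52 CPM and plasmacytoid dendritic-like cells 22.3 and 3.60 CPM. Erythroid-like cells had 19.6 and 15.9 CPM and the mixed megakaryocyte-like class 9.06 and 24.8 CPM. The part of this background in the macrophage- or monocyte-like ratio was not tested. Mmp13 was at 26.9 CPM (24.8 to 29.1) and 16.2 CPM (14.9 to 17.6), a log2 ratio of 0.73 (0.56 to 0.90), but 5 GA cells held 61.8% of its UMIs. Without the 5 highest cells of each library its log2 ratio was -0.11. Medians were -0.11 over these members and 0.08 over all genes.

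The macrophage sub-classes differed in which members they carried. Arg1 macrophage-like cells (312 GA and 525 control cells), named by Arg1, Fn1 and Inhba among others, include a cluster of 57 and 79 cells led by the antigen presentation genes H2-Eb1 and H2-Aa. They had the highest Mmp19, at 604 CPM (586 to 623) and 434 CPM (423 to 446), a log2 ratio of 0.48 (0.42 to 0.53), and without that cluster 611 and 431 CPM. Mmp19 was concentrated in their cluster led by Ccl24, Cxcl3 and Areg, at 1700 and 988 CPM, and 5 GA cells held 37.7% of the sub-class's UMIs. C1q macrophage-like cells (240 and 488 cells), named by complement C1q genes, Mrc1 and Folr2, had 106 and 119 CPM, and monocyte-like cells (284 and 221 cells) 46.7 and 65.6 CPM.

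Timp2 had the opposite order. It was at 1172 CPM (1141 to 1203) and 977 CPM (958 to 997) in C1q macrophage-like cells, 605 and 658 CPM in Arg1 macrophage-like cells and 32.1 and 42.5 CPM in monocyte-like cells. Its highest cluster, of 20 GA and 61 control cells, was led by Nav3, Plxdc2 and Cd5l and had 1871 and 1599 CPM. Adam8 was higher in Arg1 macrophage-like (340 and 288 CPM) than in C1q macrophage-like (162 and 140 CPM) and monocyte-like cells (127 and 120 CPM), and Mmp14 likewise at 310 and 282 CPM, 149 and 188 CPM, and 10.5 and 36.8 CPM. Monocyte-like cells were the lowest of these sub-classes in Timp2, Mmp14 and Mmp19. They held 5354929 of the 22296324 UMIs of the class in GA and 2774278 of 35789965 in control. The part of these shares in the class ratios was not tested. Clusters led by Il10 and Tnip3 (108 and 235 cells) and by Hmox1 and Gclm (64 and 132 cells) stayed unnamed and outside these sub-classes. Their Adam8 stood at 258 and 296 CPM, and at 496 and 556 CPM. Their Mmp14 stood at 338 and 370 CPM, and at 227 and 264 CPM.

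Past 1.5-fold were 1 of 6 members in Arg1 macrophage-like cells (5.44% of all genes), which was Mmp13 at 71.4 and 33.9 CPM, and 0 of 5 in C1q macrophage-like cells (5.69% of all genes). In monocyte-like cells 0 of 3 were (7.09% of all genes). The Mmp13 value rested on few cells, with 72.9% of the GA UMIs in 5 cells, and its log2 ratio was 1.07 with them and -0.01 without the 5 highest of each library. Apart from the named macrophages, 23 GA and 64 control cells formed a cluster with osteoclast markers that was left out of the class. It had 172 and 42.8 CPM of Mmp9 and 771 and 519 CPM of Mmp19.

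**Figure D5:**
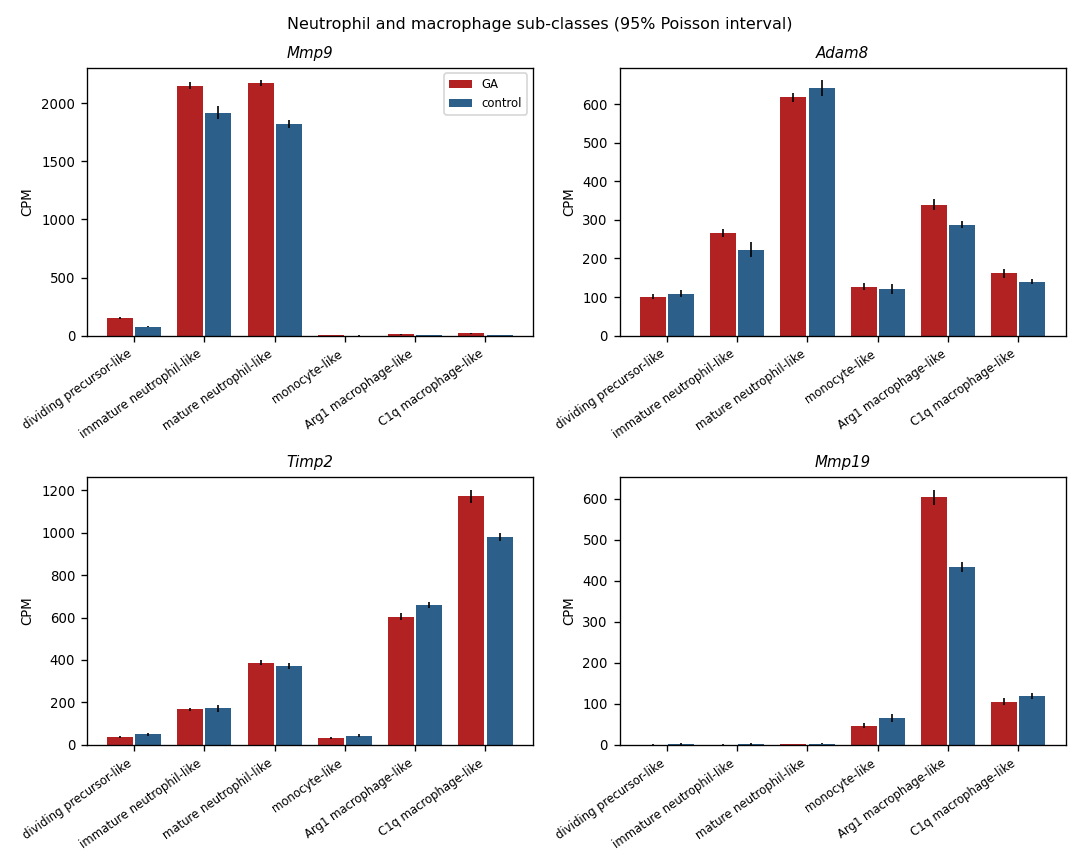
CPM of Mmp9, Adam8, Timp2 and Mmp19 in 3 neutrophil and 3 macrophage sub-classes, GA in red and control in blue, with exact Poisson 95% intervals. Mmp9 stands at 2150 and 2172 CPM in immature and mature neutrophil-like cells of GA and at 152 CPM in dividing precursor-like cells, Mmp19 is highest in Arg1 macrophage-like cells and Timp2 in C1q macrophage-like cells.

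In dendritic-like cells (172 GA and 333 control cells) 3 of 5 members were past 1.5-fold (6.48% of all genes). Timp2 was higher in GA, at 160 and 104 CPM with a log2 ratio of 0.62 (0.46 to 0.79), Adam8 too, at 178 and 118 CPM with 0.60 (0.44 to 0.76), and Timp1 lower, at 38.9 and 72.4 CPM with -0.89 (-1.18 to -0.61). The ratios of Timp2 and Adam8 are close to 1.5-fold and went down to 0.34 and 0.41 over 18 other settings. Neutrophil markers summed to 2672 and 714 CPM, with 10 of 10 higher in GA. Of the 12 macrophage or monocyte markers 11 were higher in the dendritic-like cells of GA, with sums of 11901 and 8903 CPM and none at 0. Mesenchymal markers summed to 233 and 361 CPM, with 0 of 9 higher in GA and Msx1 at 0 in GA, and the part of these markers was not tested.

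In endothelial-like cells (62 and 103 cells) 3 of 4 members were past 1.5-fold (11.7% of all genes). Timp3 was higher in GA, at 736 and 372 CPM with a log2 ratio of 0.99 (0.84 to 1.13), in 53.2% and 49.5% of the cells. The 5 highest cells held 62.7% and 37.5% of its UMIs, and without them the log2 ratio was 0.30. Timp1 (54.2 and 93.1 CPM) and Timp2 (64.0 and 98.5 CPM) were lower in GA, with log2 ratios of -0.78 and -0.62 that shrank to -0.26 with another clustering seed and -0.16 with each cell named by its own markers. Only 13 other settings gave ratios for this class. The depth of this class differed, with medians of 2438.5 and 7617 UMIs, and neutrophil markers summed to 5615 CPM in GA and 206 CPM in control, where Ly6g and Cd177 were at 0. Mesenchymal markers summed to 997 and 1574 CPM (4 of 9 higher in GA) and pericyte or smooth muscle markers to 444 and 883 CPM (1 of 8 higher), and the part of these markers was not tested.

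The HSC-like class (621 GA and 313 control cells), named by Mpo, Elane, Prtn3 and Ctsg, early myeloid genes, carried the members at a few CPM. There 5 of 6 members were past 1.5-fold (4.07% of all genes), Mmp9 (10.6 and 3.56 CPM) and Mmp19 (9.11 and 4.25 CPM) higher in GA and Timp1 (5.11 and 8.39 CPM), Timp2 (7.62 and 12.4 CPM) and Timp3 (2.90 and 22.1 CPM) lower. Timp3 had a log2 ratio of -2.93 (-3.32 to -2.55), but 5 control cells held 92.7% of its 192 UMIs and 1 of them 103. Without the 5 highest cells of each library the ratio was -1.07, and it was 0.47 among cells with at least 2000 UMIs and 1.13 with a mitochondrial limit of 10%. The ratios of the other 4 fell within 1.5-fold or changed sign under other settings, to 0.22 for Mmp9, -0.45 for Mmp19, 1.77 for Timp1 and 0.06 for Timp2. Megakaryocyte markers in this class summed to 129 and 801 CPM, with 0 of 6 higher in GA and none at 0, and mesenchymal markers to 231 and 298 CPM, with 0 of 9 higher and Msx1 at 0 in GA, and their part was not tested.

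In erythroid-like cells (82 and 113 cells) 2 of 2 members were past 1.5-fold (7.25% of all genes), Mmp14 (15 and 105 CPM) and Timp2 (30.7 and 131 CPM), both lower in GA. Mesenchymal markers there summed to 182 CPM in GA and 3783 CPM in control, with 0 of 9 higher in GA and Pdgfra and Msx1 at 0 in GA, and their part was not tested. With doublets kept, the log2 ratio of Mmp14 went from -2.81 to -0.62 and that of Timp2 from -2.10 to -0.96, and after thinning Timp2 was at -0.20. No member reached 200 UMIs in B-like, T- or NK-like or plasmacytoid dendritic-like cells.

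Around the members stands a wider list of 51 genes of the pathway, other MMPs, inhibitors, activating proteases, partners and related ADAM and ADAMTS proteases. Over all cells 23 of the 40 with enough UMIs were past 1.5-fold (27.4% of all genes), 4 higher in GA and 19 lower. In the mesenchymal lineage 7 of 38 were (9.14% of all genes), with a median log2 ratio of 0.05. Pcsk6, a proprotein convertase, stood at 70.0 and 33.1 CPM (1.08, 1.01 to 1.15), and Adamts5, an aggrecan protease, at 285 and 183 CPM (0.64, 0.61 to 0.67). Mmp10, the neighbour and near relative of Mmp3, was lower in GA as Mmp3 was, at 0.614 and 3.17 CPM, and Mmp28 stood at 0.986 and 2.05 CPM. Mmp27 was higher, at 5.06 and 2.91 CPM, as were the neutrophil granule genes Mmp8, at 4.06 and 0.959 CPM, and Lcn2, at 27.6 and 5.30 CPM. Mmp8 came to 5.09 and 5.18 UMIs per 1000 neutrophil marker UMIs in mesenchymal cells and 4.40 and 4.43 in neutrophil-like cells.

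In neutrophil-like cells 1 of 18 genes of the wider list was past 1.5-fold (5.67% of all genes), the endocytic receptor Lrp1 at 7.17 and 11.5 CPM, and the genes of highest level were Lcn2, Mmp8 and Cd44. Lcn2, whose protein binds Mmp9, had 9774 and 7963 CPM. Mmp8, the neutrophil collagenase, had 1477 and 1376 CPM, and the matrix receptor Cd44, which can hold Mmp9 at the surface, had 911 and 1020 CPM. In macrophage- or monocyte-like cells 3 of 21 genes were past it (7.24% of all genes), Mmp8 (53.7 and 10.3 CPM) and Lcn2 (77.2 and 8.52 CPM) higher and the plasminogen activator Plat (2.69 and 5.45 CPM) lower. Per 1000 neutrophil marker UMIs these cells carried 34.0 and 32.1 UMIs of Mmp8 and 48.9 and 26.6 of Lcn2. Neutrophil-like cells carried 4.40 and 4.43 of Mmp8 and 29.1 and 25.7 of Lcn2. Of the wider list, Cd44, Cd63 and Lrp1 had the highest levels in macrophage- or monocyte-like cells. In the mesenchymal lineage those were Cd44 (1513 and 1105 CPM), Cd63 (1438 and 1417 CPM) and Bsg (573 and 550 CPM), surface proteins of which Cd63 binds Timp1 and Bsg induces MMPs. All 3 were within 1.5-fold.

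The genes most like each member in pattern were found from 15319 genes by Pearson correlation of log2(CPM + 1) over 23 points, 1 for each library and named class with at least 50 cells, the mixed megakaryocyte-like class included, as a description. These points share libraries, depth and free RNA, so they are not independent. Mmp2 was nearest to Col1a2 (0.99), Col1a1 (0.99) and Lum (0.99), which are among the markers that named the mesenchymal lineage, and Mmp3 to Pak3 (0.96), Smoc2 (0.96) and Crym (0.95). Nearest to Mmp13 were Vasn (0.90), Fap (0.90) and Cxcl1 (0.89), and Fap (0.93) was also among those nearest to Timp1, after Mdk (0.94) and Bend6 (0.94). Mmp14 was nearest to Cd109 (0.94), Plxna1 (0.94) and Ttyh2 (0.93), Timp2 to Mir22hg (0.83), Rps6kc1 (0.82) and Ahnak2 (0.80), and Timp3 to genes that include Gng11 (0.92) and Rhoj (0.92). Of the myeloid members, Mmp9 was nearest to Rufy4 (0.84), S100a3 (0.80) and 5430425K12Rik (0.76), Mmp19 to Fxyd2 (0.95), Flrt3 (0.92) and Anpep (0.91), and Adam8 to Il1rn (0.94), Lilr4b (0.93) and Slc11a1 (0.93). Among the members themselves the closest pair was Mmp2 and Mmp3 (0.91), followed by Mmp2 and Timp1 (0.88), whereas Mmp2 and Mmp9, both gelatinases, had -0.16.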

How the data were processed

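Single-cell suspensions of 1 GA and 1 control library were analysed from the deposited filtered matrices, in which the authors give whole-number UMI counts per gene and barcode, made with Cell Ranger 7.0.1 per the file headers on mm10. No other column was used. The members, gene lists and marker lists were chosen with earlier results of these data known, and the thresholds for naming clusters were set after seeing the data. Barcodes with 500 to 140000 UMIs, 200 to 9500 genes and at most 15% mitochondrial UMIs were kept. Scrublet's automatic cut marked 0 and 39 barcodes, so the highest-scoring barcodes were removed at 0.8% per 1000 barcodes, 656 and 540 of those within the limits. Pearson residuals of 2000 variable genes, without the members and the pathway list, gave 50 components, which were joined over libraries by Harmony, and 15 neighbours and the Leiden method at resolution 1 gave 44 clusters, of which 2 stayed unnamed. Clusters with at least 3 markers of another class among their 10 leading genes were taken out of their class. Some clusters within the mesenchymal, neutrophil-like and macrophage- or monocyte-like classes stayed unnamed and count in the class but in no sub-class. A class called X-like rests on these rebuilt names.

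Counts were summed per class and library and given as CPM, with exact Poisson intervals, ratios with exact conditional binomial intervals, and shares of cells with Clopper-Pearson intervals (95%). A count of 0 was given the limit of 3 counts. Ratios were computed for classes with at least 50 cells in each library and counted from 200 UMIs. For shares at equal depth each cell was thinned to 2000 UMIs, which left out 158 and 200 cells. Named were all members, the genes of the pathway list that were past 1.5-fold in the 3 main classes or were among the 3 highest there, and the 3 genes nearest in pattern to each member, of which 1 is not reported here. With 1 library per group no edgeR or DESeq2 test could be run. Sums, ratios and intervals were tested on simulated Poisson counts. These leave out the spread between cells, so the test does not show that the intervals cover it. The results were recomputed under 16 other settings and 4 more chosen after seeing the data. Doses are those of the labels. Python 3.11.15, scanpy 1.11.5, NumPy 2.4.6, SciPy 1.17.1, pandas 2.3.3, scikit-learn 1.9.0 and igraph 0.11.9 were used.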

Additional observations from a re-analysis of the deposited data

Results flagged for a closer look

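For 5 members the GA to control ratio was past 1.5-fold in opposite directions in different classes or sub-classes, each with 1 library per condition, and the difference between the ratios was not tested. In single classes or sub-classes 2.57% to 11.7% of all genes were past 1.5-fold. How many of all genes had such opposite ratios was not counted, so the 5 are not read as a trait of the members. The log2 ratio of Mmp3 was 1.87 in Stem 1-like cells, -0.75 in the mesenchymal lineage as a whole and -1.04 in Stem 2-like cells. Most Mmp3 UMIs of the Stem 1-like GA cells lay in 5 cells.

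Mmp13 had log2 ratios of 0.97 in multilineage progenitor-like cells, 0.73 in macrophage- or monocyte-like cells and 1.07 in their Arg1 macrophage-like sub-class, and of -1.02 in Stem 1-like and -0.77 in Stem 2-like cells. Without the 5 highest cells of each library, its ratios that were higher in GA became 0.46, -0.11 and -0.01 in the same order. After thinning, its Stem 2-like ratio was 0.06. For Timp2 the log2 ratio was 0.62 in dendritic-like and -0.70 in HSC-like, -0.62 in endothelial-like and -2.10 in erythroid-like cells. Without doublet removal the HSC-like value of Timp2 was -0.07, and with each cell named by its own markers the endothelial-like one was -0.16. Timp3 had 0.59 in Stem 1-like, 1.44 in Stem 2-like, 0.64 in multilineage progenitor-like, 1.43 in osteoblast-like and 0.99 in endothelial-like cells and -2.93 in HSC-like cells, where 5 control cells held 92.7% of the control UMIs. Adam8 had 0.60 in dendritic-like cells and -0.65 in multilineage progenitor-like cells, where its level was 10.2 and 15.97 CPM and the ratio was -0.24 with doublets kept.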

How the results depend on the processing

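The 41 ratios and the counts of genes were recomputed under up to 20 other settings, and 12 ratios turned direction under at least 1 of them. All-cell ratios had values under 20 settings, most class ratios under 19, dendritic-like ones under 18 and endothelial-like ones under 13. Some settings could not change a given ratio, such as the lower UMI count for a call or the removal of a cluster of another class. With each class at the same share of UMIs in both libraries, a setting chosen after seeing the data, the log2 ratios over all cells became 0.26 for Mmp2, 0.05 for Timp1 and -0.03 for Adam8, the members past 1.5-fold went from 8 to 1 and the pathway genes from 23 to 5. That setting holds composition constant by construction. The share of all genes past 1.5-fold under it is not given here, so these recounts are not read as a trait of the members. Without the 5 cells with the most UMIs, Mmp13 was at -0.11 in macrophage- or monocyte-like and -0.01 in Arg1 macrophage-like cells. After thinning, Mmp13 was at 0.06 in Stem 2-like cells. Timp3 in osteoblast-like cells was at -0.31 with doublets kept, -0.01 at resolution 0.5 and -0.06 with each cell named by its marker score. In HSC-like cells Mmp19 was at -0.32 at resolution 0.5 and -0.45 with log1p counts, Timp1 at 0.02 with doublets kept and 1.77 with cells named by marker score, and Timp2 at 0.01 with the latter and 0.06 after thinning. Timp3 there was at 1.13 with a mitochondrial limit of 10%, 0.03 without Harmony, 0.12 with log1p counts, 0.47 among cells with at least 2000 UMIs and 1.66 with cells named by marker score. Timp2 in erythroid-like cells was at 0.79 as a mean over cells. The cause of the values after thinning, of Timp3 in osteoblast-like cells and of those in HSC-like and erythroid-like cells was not tested.

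Members past 1.5-fold in the mesenchymal lineage went from 2 to 1 with free RNA subtracted and after thinning. In neutrophil-like cells they went from 2 to 1 with each cell named by its marker score, 0 after thinning and 5 with genes counted from 50 UMIs. In macrophage- or monocyte-like cells they went from 2 to 1 without Harmony, without the 5 highest cells and as a mean over cells, to 0 after thinning and to 4 with genes counted from 50 UMIs. Thinning leaves fewer UMIs, so fewer genes reach 200. The shares of all genes past 1.5-fold under these settings are not given here. The recounts of this paragraph are therefore not read as a trait of the members or pathway genes. In neutrophil-like cells the ratios after thinning were -1.17 for Timp1 and -0.97 for Mmp14, too few to be counted. Pathway genes went from 7 to 2 in the mesenchymal lineage after thinning. In neutrophil-like cells they went from 1 to 0 with doublets kept, with cells named by marker score, relative to the class median, with free RNA subtracted, without the 5 highest cells and as a mean over cells, and to 7 from 50 UMIs. In macrophage- or monocyte-like cells they went from 3 to 5 with doublets kept and to 1 after thinning. Mmp3 stayed past 1.5-fold and lower in GA over all cells, in the mesenchymal lineage (-1.02 to -0.72) and in Stem 2-like cells. So did Mmp13 in Stem 1-like cells (-2.53 to -0.71) and Mmp14 in neutrophil-like cells (-1.2 to -0.71). Timp1 did so in dendritic-like (-1.66 to -0.73), neutrophil-like (-1.24 to -1.04) and mature neutrophil-like cells. Ratios that stayed higher were those of Timp3 in Stem 2-like cells and Mmp9 in macrophage- or monocyte-like cells (1.35 to 2.25). In the latter all 10 neutrophil markers were also higher in GA, and Mmp9 per 1000 of their UMIs was 7.61 and 11.8. The class of highest level was the same for 8 to 10 of the 10 members.

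No paired analysis was possible because each group has 1 library and the result comes from no test. The libraries differ in depth, cell composition and free RNA, and 5 pooled mice give no spread between animals. Whether the differences come from GA, from the animals or from sample handling cannot be told apart.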

Other observations

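A cluster of 6 GA and 6 control cells led by Csmd1, Hp and Cxcl12, with Adipoq among its 5 leading genes, stayed unnamed and had 582 and 2121 CPM of Mmp13 and 442 and 378 CPM of Timp3, from too few cells for a ratio. A mesenchymal cluster of 43 GA and 44 control cells that also carried neutrophil markers was left out of the lineage, and it had 222 CPM of Mmp9 in GA and 44.5 CPM in control. In erythroid-like cells Mmp2 stood at 6.53 CPM in GA and 79.9 CPM in control, with a UMI in 12.2% and 13.3% of the cells, and mesenchymal markers there summed to 182 and 3783 CPM.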
